A study of Mus musculus with 2 samples.

Results

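The ligands of the epidermal growth factor (EGF) family were examined in mammary epithelial cells of Cuzd1-null mice and of heterozygous mice. The members were taken by gene symbol: epigen (Epgn), epiregulin (Ereg), epidermal growth factor (Egf), transforming growth factor alpha (Tgfa), heparin-binding EGF-like growth factor (Hbegf), betacellulin (Btc), neuregulin 1 (Nrg1) and neuregulin 2 (Nrg2). These 8 genes, of 18193 genes with a probe set naming a single gene, were read by 14 of the 45037 non-control probe sets on each of 2 arrays. The product of Cuzd1 has CUB domains and a zona pellucida-like domain. The null group was 5 Cuzd1-null females with the gene disrupted by homologous recombination, and the other group was 5 Cuzd1 heterozygous littermates, which carry 1 disrupted allele. Both were on a predominantly C57BL/6 background and were taken on day 18 of pregnancy. RNA of the 5 mice of a genotype was pooled on 1 array, so the comparison has no replicate, no spread between animals and no test. No wild-type array was analysed here. EGF ligands and EGFR stand among the topics in the submitters' labels, so this family was not picked independently of the study.

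EGF family ligands are made as membrane-anchored precursors, and metalloproteases of the ADAM family cut the growth factor domain free. The released domain binds a receptor tyrosine kinase of the ErbB group, and the paired receptors signal through RAS, MAP kinase and PI3 kinase. Epigen, EGF and TGF-alpha bind EGFR. Epiregulin, HB-EGF and betacellulin bind EGFR and ErbB4, and the neuregulins bind ErbB3 and ErbB4. In the mammary gland this network is known for roles in duct growth and in the alveolar development of pregnancy.

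In these pools Epgn and Ereg were at least 3.97-fold and at least 2.22-fold lower in null cells, where both were at background. These were the lowest floored ratios of the family, and without a floor the log2 ratios were -2.42 and -1.69. Egf and Tgfa were 1.77-fold and 1.62-fold lower, and Nrg1 at least 1.57-fold lower. Epgn, Ereg and Nrg1 passed the filter through the heterozygous array alone and so had to read lower. Hbegf and Btc had nearly equal signal in both genotypes at the deposited scaling. Of the 2 measured probe sets of Nrg2, the brightest had a ratio of 0.40, under 1 robust SD of probe sets of similar signal. The other was at the floor in heterozygous cells, with a ratio of at least 0.58 as a bound and 1.68 without a floor. None of the 3 measured ErbB receptors and no measured gene of the downstream lists was 2-fold apart at its brightest probe set. Over all 11893 measured genes, 1.03% were at least 2-fold lower and 1.12% higher. At such shares, finding none in short lists says little.

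The values are MAS5 signals, a linear intensity in arbitrary units, scaled by the authors to a common average per array. Because low MAS5 signals are largely background, a floor was set for each array at its median over non-control probe sets, 32.5 units on the null array and 34.2 units on the heterozygous array. A probe set above the floor on at least 1 array was called measured. Signals below the floor were raised to it before the log2 ratio (null over heterozygous), and a ratio with 1 array at the floor is a bound, written as "at least". Probe sets and genes were counted by a rule of size, 2-fold. Directions depend on the deposited scaling. Of the hybridization controls, 8 of 9 read lower on the null array, with a median log2 ratio of -0.23. Rescaling to them raised the median ratio of all measured probe sets to 0.23, against 0.00 as deposited, and gave 127 probe sets at least 2-fold lower and 639 higher, against 288 lower and 234 higher as deposited. Cuzd1 itself was near the floor on both arrays, at 33.98 units in null cells and 32.4 units in heterozygous cells, and so does not check the labels.

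Of the 14 ligand probe sets, 10 were measured. These were 6 above both floors, 3 at the floor in null cells and 1 at the floor in heterozygous cells. Epgn and Ereg, 2 of the 10, were at least 2-fold lower in null cells, where 1.19% of all 24260 measured probe sets were. None was at least 2-fold higher, against 0.965% of all. The ratios ran from -1.99 to 0.58, with 6 below 0 and 4 above 0, and the median was -0.37. Over all measured probe sets the median was 0.00, with 12043 below 0 and 12217 above 0. Epgn, Ereg and Nrg1 count as measured through the heterozygous array alone and so had to read lower, and 1 Nrg2 probe set through the null array alone. Over the 6 ligand probe sets above both floors the median was -0.04, against 0.01 over all 20776 such probe sets. These figures describe the 2 pools.

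**Figure D1:**
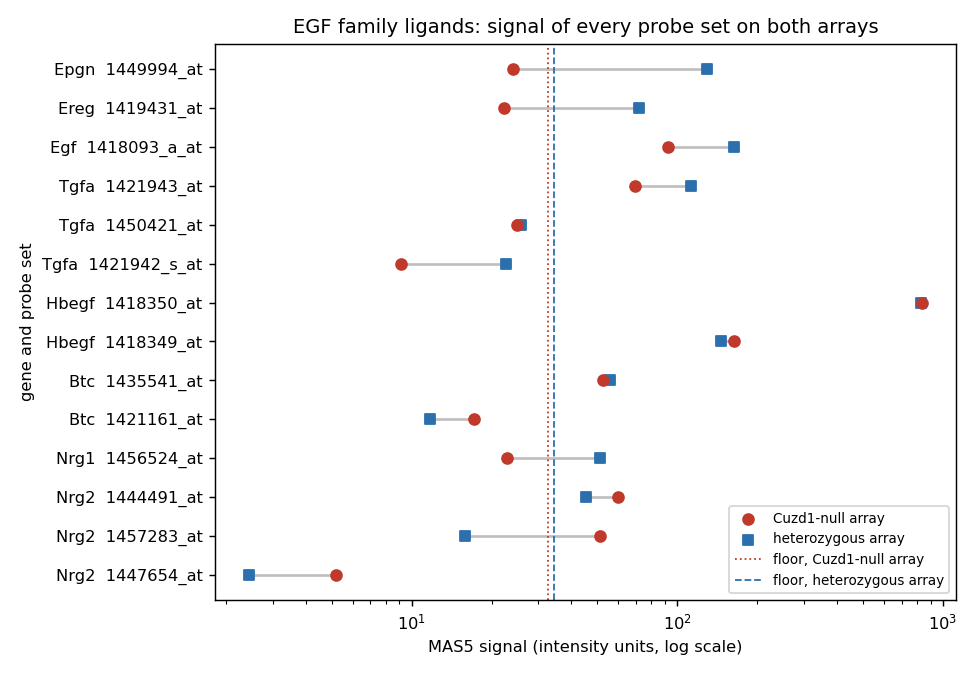
MAS5 signal in intensity units (log scale) of each of the 14 ligand probe sets on the Cuzd1-null array (red circles) and the heterozygous array (blue squares), with the floor of each array as a vertical line. Epgn, Ereg and Nrg1 lie left of the floors in null cells and right of them in heterozygous cells, while both Hbegf probe sets have nearly equal signal.

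Of the ligands that bind EGFR alone, Epgn, Egf and Tgfa were read. The brightest probe set of each had a ratio below 0 at every setting that measured it, but only Epgn passed the 2-fold rule. Epgn, the epithelial ligand epigen (probe set 1449994_at), had 24.1 units in null cells, below the floor, and 129 units in heterozygous cells. It was at least 3.97-fold lower, a log2 ratio of -1.99 as a bound and -2.42 without a floor. Ranked on its own array, which no scaling factor alters, its probe set stood above 43.5% of non-control probe sets in null cells and above 73.1% in heterozygous cells. Of the 24260 measured probe sets, 15 had a ratio that low, Epgn included. Among probe sets of similar signal, in 1 of 20 bins, the robust SD of the ratios was 0.44, and 2.56% were at least 2-fold lower. Epgn was measured through the heterozygous array alone, so its ratio had to be below 0. At the null floor it is also the lowest ratio possible for its mean floored signal. The rank and the share in the bin therefore do not show how rare the gap is.

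Egf, the founding member of the family (1418093_a_at), had 92.2 units in null cells and 163 units in heterozygous cells. Both lay above the floor, and the signal was 1.77-fold lower in null cells (log2 ratio -0.82). Divided by the robust SD of 0.35 among probe sets of similar signal, the ratio was -2.34, and it did not reach the 2-fold rule. Its rank on the array was 67.7% in null cells and 76.6% in heterozygous cells.

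Tgfa, which encodes TGF-alpha, was read by 3 probe sets. The brightest (1421943_at) had 69.3 units in null cells and 112 units in heterozygous cells, 1.62-fold lower (log2 ratio -0.70). The second (1450421_at) was below both floors, with 24.96 units in null cells and 25.8 units in heterozygous cells. The third (1421942_s_at) was also below both, with 9.15 units in null cells and 22.7 units in heterozygous cells. The gap thus rests on 1 measured probe set, whose ratio divided by the robust SD of 0.43 in its bin was -1.64.

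The ligands that bind both EGFR and ErbB4 did not move together. Ereg, epiregulin (1419431_at), had 22.3 units in null cells, below the floor, and 72.1 units in heterozygous cells. It was at least 2.22-fold lower, a log2 ratio of -1.15 as a bound and -1.69 without a floor. Its rank on the array was 41.7% in null cells and 64.0% in heterozygous cells. The robust SD in its bin was 0.55, wider than for Epgn, and 4.45% of the probe sets there were at least 2-fold lower. Ereg too was measured through the heterozygous array alone and had to read lower, so this share does not show how rare its gap is.

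Hbegf, whose product binds heparan sulfate, had 836.9 units in null cells and 829.03 units in heterozygous cells at its brighter probe set (1418350_at). The ratio was 0.01, with a robust SD of 0.24 in that bin. Its other probe set (1418349_at) had 163.3 units in null cells and 145.8 units in heterozygous cells, a ratio of 0.16. Both probe sets were above both floors, and at the deposited scaling both ratios were smaller than 1 robust SD of probe sets of similar signal. On the hybridization-control scale they were 0.24 and 0.39, above the robust SDs of 0.237 and 0.307, where the median of all measured probe sets was 0.23.

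Btc, betacellulin, had 52.7 units in null cells and 55.9 units in heterozygous cells at its measured probe set (1435541_at), a ratio of -0.08 that became 0.14 on the hybridization-control scale. Its other probe set (1421161_at) was below both floors, with 17.2 units in null cells and 11.7 units in heterozygous cells. No direction is given for Btc.

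The neuregulins, ligands of ErbB3 and ErbB4, had ratios below 0 for Nrg1 and above 0 for Nrg2. The signs of Nrg1 and of the Nrg2 probe set 1457283_at were set by the array through which each counted as measured. Nrg1 (1456524_at) had 22.9 units in null cells, below the floor, and 51.2 units in heterozygous cells. It was at least 1.57-fold lower, a log2 ratio of -0.65 as a bound and -1.16 without a floor, so it passed the 2-fold rule only where low signal was kept. The robust SD in its bin was 0.63.

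Nrg2 was read by 3 probe sets, of which 2 were measured. The brightest (1444491_at) had 60.1 units in null cells and 45.5 units in heterozygous cells (ratio 0.40). The second (1457283_at) had 51.1 units in null cells and 15.9 units in heterozygous cells, where it was below the floor. It was at least 1.49-fold higher, a log2 ratio of 0.58 as a bound and 1.68 without a floor. The third (1447654_at) was below both floors, with 5.21 units in null cells and 2.44 units in heterozygous cells. The ratio of the brightest was 0.73 times the robust SD in its bin. That of the second was at least 0.84 times the robust SD in its bin, as a bound.

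**Figure D2:**
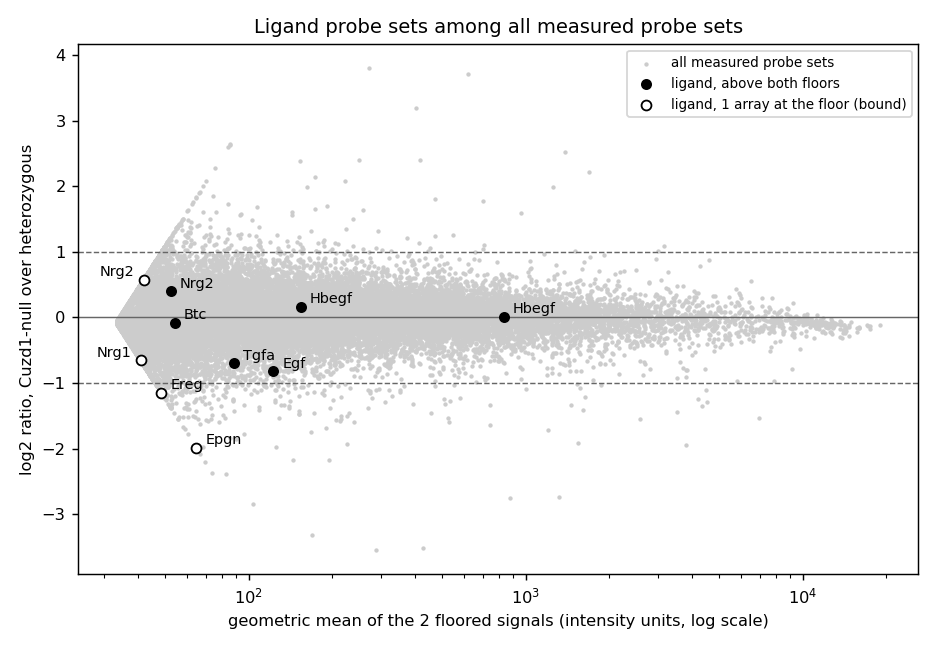
Log2 ratio of Cuzd1-null over heterozygous against the geometric mean of the floored signals (intensity units, log scale) for all 24260 measured probe sets (grey) and the 10 measured ligand probe sets (black, open where 1 array was at the floor), with dashed lines at 2-fold. Epgn and Ereg lie below the lower dashed line, on the edge set by the null floor, and no ligand lies above the upper line.

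By gene, with the brightest probe set standing for each, all 8 ligands were measured. Epgn and Ereg were at least 2-fold lower and none was at least 2-fold higher, where 1.03% and 1.12% of 11893 measured genes were. The gene-level median was -0.68, against 0.03 over all measured genes. Restricted to the 5 ligands above both floors it was -0.08, because this leaves out Epgn, Ereg and Nrg1. On the hybridization-control scale the ratio of Epgn was -1.76 and that of Ereg -0.92, so Ereg no longer reached 2-fold.

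Of the remaining ligands of the family, Nrg3 and Nrg4, neuregulins that bind ErbB4, were below the floor on both arrays. The brighter Nrg3 probe set had 6.50 units in null cells and 10.7 units in heterozygous cells. That of Nrg4 had 16.4 units in null cells and 22.2 units in heterozygous cells. Amphiregulin (Areg) was not analysed here.

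The DNA just upstream of the genes is shown for Epgn, which had the lowest ratio of the family, for Egf and Tgfa, which had lower signal in null cells with both arrays above background, and for Btc, a neighbour of Epgn on chromosome 5 with nearly equal signal. Each run is the 250 bases before an annotated gene start, from RefSeq on build GRCm38.p6, printed 5′ to 3′ on the strand of the gene. Capitals mark a match to a searched motif.
Epgn upstream window, chr5:91027267-91027516, plus strand: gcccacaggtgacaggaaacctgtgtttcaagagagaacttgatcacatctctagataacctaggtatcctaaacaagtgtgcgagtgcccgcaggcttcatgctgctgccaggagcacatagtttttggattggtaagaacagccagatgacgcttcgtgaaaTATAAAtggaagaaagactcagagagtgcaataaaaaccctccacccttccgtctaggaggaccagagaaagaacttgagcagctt
Egf upstream window, chr3:129755323-129755572, minus strand: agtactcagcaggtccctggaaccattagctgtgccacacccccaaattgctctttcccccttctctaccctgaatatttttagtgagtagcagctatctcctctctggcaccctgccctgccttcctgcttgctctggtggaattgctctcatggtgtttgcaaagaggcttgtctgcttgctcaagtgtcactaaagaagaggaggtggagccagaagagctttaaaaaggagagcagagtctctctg
Tgfa upstream window, chr6:86194972-86195221, plus strand: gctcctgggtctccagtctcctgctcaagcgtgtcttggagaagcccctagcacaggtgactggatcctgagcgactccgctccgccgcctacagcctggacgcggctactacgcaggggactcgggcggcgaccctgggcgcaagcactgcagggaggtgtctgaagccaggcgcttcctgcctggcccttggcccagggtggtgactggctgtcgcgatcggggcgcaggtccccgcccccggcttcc
Btc upstream window, chr5:91402995-91403244, minus strand: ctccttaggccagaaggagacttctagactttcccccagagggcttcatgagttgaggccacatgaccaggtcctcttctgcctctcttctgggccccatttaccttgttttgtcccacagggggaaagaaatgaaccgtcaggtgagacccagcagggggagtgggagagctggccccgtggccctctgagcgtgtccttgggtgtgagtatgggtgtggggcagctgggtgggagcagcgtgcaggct

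The motifs searched on both strands were TTCNNNGAA, the palindrome that STAT5 binds, TGANTCA, the AP-1 palindrome, and TATAAA, the TATA box. The Epgn window held 1 match, a TATAAA beginning 86 bases before the gene start, so no matches overlapped. No motif was in the windows of Egf, of which the table held a further one, nor in those of Tgfa and Btc. Among all 32851 windows of the same length, 7.02% held TTCNNNGAA, 6.75% TGANTCA and 12.4% TATAAA. The GC content was 46.8% in the Epgn window, 50.4% in the Egf window, 69.2% in the Tgfa window and 59.6% in the Btc window. A match describes these letters alone. No window is given for Ereg, Hbegf, Nrg1 and Nrg2, and any window on chromosome 18, where Hbegf and Nrg2 lie, was left out.

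Epgn, Ereg and Btc lie in 1 cluster on chromosome 5, with Areg between Ereg and Btc in the RefSeq gene table (GRCm38.p6). The genes of this stretch did not share 1 ratio. Mthfd2l, a mitochondrial folate enzyme beside Epgn, had 200.2 units in null cells and 184 units in heterozygous cells, a ratio of 0.12. Parm1, the next protein-coding gene after Btc, had 198 units in null cells and 179.9 units in heterozygous cells, a ratio of 0.14. Of the 9 measured genes in the stretch, 6 had ratios below 0, and Epgn and Ereg had the lowest. Both counted as measured through the heterozygous array alone and so had to read lower.

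Farther out, the chemokine Cxcl1 had 4136 units in null cells and 5611 units in heterozygous cells (ratio -0.44). Cxcl2, another chemokine, had 2611 units in null cells and 3244 units in heterozygous cells (ratio -0.31). On the other side, Rchy1, a ubiquitin ligase, had a ratio of 0.08 and the kinase gene Cdkl2 of -0.49, at 66.6 units in null cells and 93.3 units in heterozygous cells. Cxcl3 and Cxcl15 were below both floors. None of the measured neighbours was 2-fold apart, where 1.03% of all measured genes were at least 2-fold lower and 1.12% higher.

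**Figure D3:**
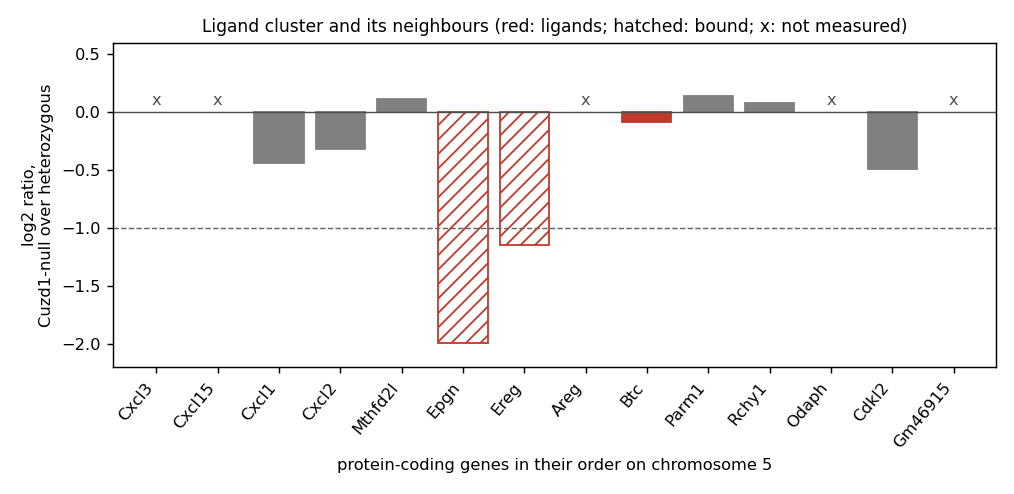
Log2 ratio of Cuzd1-null over heterozygous for the protein-coding genes around the ligand cluster, in their order on chromosome 5 (red, ligands; grey, neighbours; hatched, a bound; x, not measured). Epgn and Ereg stand at -1.99 and -1.15, and Btc, Mthfd2l and Parm1 lie between -0.08 and 0.14.

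The 3 measured receptors of these ligands showed no 2-fold difference at their brightest probe sets. Egfr, the receptor of most members, had 321 units in null cells and 311 units in heterozygous cells (ratio 0.04). Erbb3, a neuregulin receptor with a weak kinase of its own, had 2073 units in null cells and 1965 units in heterozygous cells (ratio 0.08). Erbb2, the shared partner with no ligand of its own, had 106 units in null cells and 124 units in heterozygous cells (ratio -0.23). Erbb4 was below the floor on both arrays, at 2.46 units in null cells and 15.9 units in heterozygous cells.

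No measured gene of the lists for release, holding and relay of the ligand signal was 2-fold apart at its brightest probe set. Over all measured genes, 1.03% were at least 2-fold lower and 1.12% higher, so few or none would be called in lists this short. Of the shedding list, 9 of 10 genes with a probe set were measured, with a median ratio of 0.06. Adam10 and Adam17, the main sheddases of the family and named here for that role after their values were seen, had ratios of 0.26 and 0.21. The brightest of the list were Rnf130 (0.06), a gene for a ubiquitin ligase and not for a protease, and the metalloprotease gene Adam9 (-0.20). The 6 genes for heparan sulfate carriers and co-receptors had a median of -0.19, which became 0.03 on the hybridization-control scale. Among them Sdc4, a heparan sulfate proteoglycan, had -0.50, with 1445 units in null cells and 2043 units in heterozygous cells. Cd9, a tetraspanin that associates with the HB-EGF precursor, had -0.11.

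The 12 measured adaptors and kinases of the relay had a median of -0.01, with 6 on each side of 0. The brightest were Pik3r1, the regulatory subunit of PI3 kinase (0.03), and the docking protein gene Gab1 (-0.14). Dimmer probe sets of the adaptor gene Grb2 and of Pik3ca, a catalytic subunit of PI3 kinase, named after their values were seen, had 1.03 and -1.05, against 0.02 and 0.03 at the brightest. All 16 feedback inhibitors were above both floors, with a median of -0.04 and a range of -0.42 to 0.38. Their brightest genes were Errfi1, an inhibitor of the EGFR kinase (0.16), and Dusp4, a MAP kinase phosphatase (0.16).

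Of genes induced by EGFR signalling, 13 of 14 were measured, with 6 ratios below 0, 7 above 0 and a median of 0.14. The brightest were Fos, with 9237 units in null cells and 8393 units in heterozygous cells (ratio 0.14), and Ier3 (0.30), both immediate early genes. The lowest was Myc, a growth regulator named after its value was seen, with 982 units in null cells and 1784 units in heterozygous cells (ratio -0.86). These immediate early genes also belong to the dissociation list given below.

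**Figure D4:**
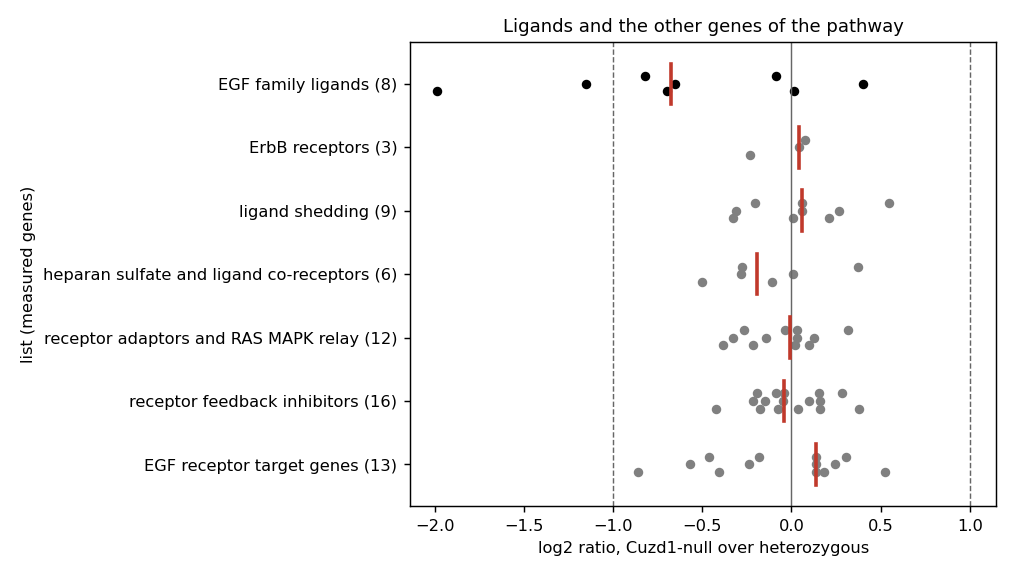
Log2 ratio of Cuzd1-null over heterozygous for each measured gene of the ligand family (black) and of the other lists of the pathway (grey), with the number of measured genes in brackets, red lines for medians and dashed lines at 2-fold. The ligands have a median of -0.68, with Epgn, Ereg and Nrg1 drawn at their bounds, and no gene of the other lists passes a dashed line.

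The cells came from an enzymatic digest of inguinal glands with no sort recorded, so lists of cell type markers are given beside the ligands. In such bulk samples, fewer cells of a type and less RNA per cell cannot be told apart. All 10 luminal markers were above both floors, with a median ratio of 0.07. Their summed signal was 45132 units in null cells and 41926 units in heterozygous cells, led by the keratins Krt18 (0.22) and Krt8 (0.06). All 10 alveolar markers were above both floors and had ratios below 0, with a median of -0.18 that became 0.05 on the hybridization-control scale. The milk genes Glycam1 (-0.12) and Csn1s1 (-0.14) led that list, whose sum was 102732 units in null cells and 117693 units in heterozygous cells.

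Among the marker lists, Krt6b, Krt17, Adipoq, Hspa1a and Hsph1 were at least 2-fold lower in null cells at their brightest probe sets. Over all measured genes, 1.03% were at least 2-fold lower and 1.12% higher. Krt6b and Adipoq were measured through the heterozygous array alone and so had to read lower. Of 11 skin keratinocyte markers with a probe set, 5 were measured, 4 of them with ratios below 0 and with a median of -0.86, which stayed below 0 at every scaling tried. The sum of the list was 360 units in null cells and 603 units in heterozygous cells. Krt6b, a stress-inducible keratin, had 8.93 units in null cells, below the floor, and 112 units in heterozygous cells, and was at least 3.43-fold lower. Its brightest markers were Krt10 (-0.86) and Lor (-0.43), a suprabasal keratin and a cornified envelope protein. Sprr1a, another cornified envelope gene, had the 1 ratio above 0 (0.52). The defining markers Krt1, Flg, Ivl, Sprr1b, Krt16 and Krtdap were below both floors, and none was at 0. Whether keratinocytes play a part in the ratios of Epgn and Ereg was not tested.

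All 10 myoepithelial markers were above both floors, with a median of -0.07 that became 0.16 on the hybridization-control scale. Krt17, a basal keratin, was 2.93-fold lower, with 126 units in null cells and 368 units in heterozygous cells. The brightest of this list, Acta2 and Tagln, which encode contractile proteins, had ratios of -0.11 and -0.03, and the sum was 24652 units in null cells and 26724 units in heterozygous cells.

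At every scaling tried, the median ratio was above 0 for markers of B cells, myeloid cells, endothelium and fibroblasts. Fibroblast markers were measured in 10 of 10, with a median of 0.59 and sums of 14214 units in null cells and 11023 units in heterozygous cells. Col1a2, a collagen chain, was 3.02-fold and Pdgfra, a growth factor receptor, 3.05-fold higher, while the brightest, Col3a1 and Postn, had 0.41 and -0.37. The other measured probe set of Col1a2 had a ratio of 1.80, but that of Pdgfra had 0.04, with 53.8 units in null cells and 52.2 units in heterozygous cells. Endothelial markers were measured in 10 of 10, all above 0, with a median of 0.39 and sums of 2875 units in null cells and 2052 units in heterozygous cells. Vwf, von Willebrand factor, was 2.49-fold higher. The brightest 2 were Cldn5 (0.42) and Esam (0.37), both of endothelial junctions. Myeloid markers had a median of 0.31 over 10, with sums of 10221 units in null cells and 8893 units in heterozygous cells, and the brightest were Cd14 (-0.15) and the lysozyme gene Lyz2 (0.43).

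B and plasma cell markers had the highest median, 0.81 over 7 measured of 8, with sums of 3014 units in null cells and 443 units in heterozygous cells. Only 3 of them, Ighm, Jchain and Cd22 (0.81), were above both floors. Cd79a, Ms4a1, Mzb1 and Pax5 were measured through the null array alone and could hardly read lower, so the median is partly set by the filter. Ighm, an immunoglobulin heavy chain, was 13.1-fold higher, with 0.28 to 3.81 at its other measured probe sets. Jchain, the joining chain, was 4.25-fold higher and the plasma cell gene Mzb1 at least 2.16-fold. T and NK markers had a median of 0.11 over 5 measured of 8, with sums of 421 units in null cells and 316 units in heterozygous cells. Their brightest were Gzma, a granule protease (0.19), and Nkg7 (0.11). Nerve and Schwann cell markers had a median of 0.09 over 3 measured of 4, with sums of 2497 units in null cells and 2676 units in heterozygous cells. Among them Sox10 had -0.23 and Pmp22, a myelin protein, 0.09.

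Adipocyte markers had a median of -0.28 over 7 measured of 8, and of -0.05 on the hybridization-control scale, with sums of 7906 units in null cells and 8951 units in heterozygous cells. Adipoq, which encodes adiponectin, was at the floor in null cells and at least 2.05-fold lower, a call lost with quantile normalization and on the hybridization-control scale. The brightest of the list, Fabp4 and Pnpla2, had -0.15 and -0.42. Dissociation and immediate early genes, all 21 measured, had a median of 0.14, with sums of 94271 units in null cells and 93451 units in heterozygous cells. Hsph1 and Hspa1a, heat shock chaperones, were 6.67-fold and 3.84-fold lower, while Fos had 0.14. Hspa1b, with Fos the brightest of the list, had -0.97, and its probe sets can bind the near-identical Hspa1a. The part of any of these cell types or of dissociation in the ligand ratios was not tested.

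**Figure D5:**
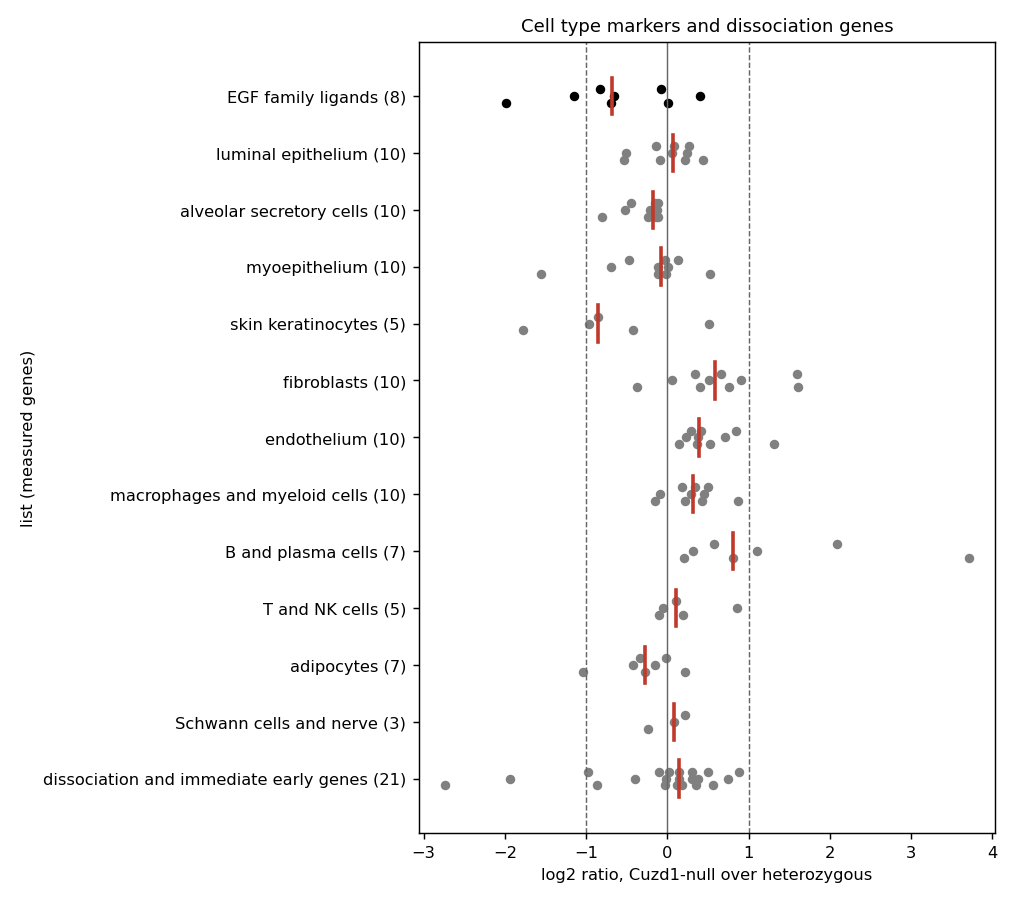
Log2 ratio of Cuzd1-null over heterozygous for each measured gene of the ligand family (black) and of the marker lists (grey), with measured genes in brackets, red lines for medians, dashed lines at 2-fold and genes with 1 array at the floor drawn at their bounds. The ligand median is -0.68 and the keratinocyte median -0.86, and the medians of fibroblasts, endothelium, myeloid and B cells lie above 0.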

How the data were processed

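Mammary epithelial cell RNA was measured on 2 3′ expression arrays, 1 per genotype. As deposited, a value is the linear intensity of a probe set on an array. Per the submitters' processing notes, the authors computed it by MAS5 with Affymetrix Expression Console (version 1). The sources used here give no genome build. After 2% of values were left out at each end, the mean was 150.0 on both arrays, so values carry 1 scaling factor per array, which assumes equal total signal in both pools. Detection calls were not analysed here, and precision is limited by having 2 arrays.

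Probe sets were named from the platform's annotation where it gave 1 symbol (34958 probe sets), updated through Entrez IDs (34754 matched) for the other genes. Another 932 with several symbols and 9160 not listed were not named. Signals were floored at the median of their array, log2 ratios of null over heterozygous were taken, and 2-fold was the rule of size. The brightest probe set, by mean signal, stood for a gene. Measured probe sets were divided into 20 bins by mean floored signal, and a robust SD was computed in each from median absolute deviations. It holds real differences as well as noise and does not replace replicate error. The ratio code was tested on simulated data.

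Every probe set of the members is given. From each list the genes at least 2-fold apart (up to 4 from marker lists) and the 2 brightest are named, with all ErbB receptors and all measured genes of the chromosome 5 stretch, taken as 5 protein-coding genes on each side of the ligands. The members and lists were chosen with earlier results of these data known. Alternatives were 4 other floors or filters by level, a pseudocount, 3 scalings, only probe sets above both floors, and the mean over the probe sets of a gene. Protein sequences were not used here. Python 3.11.15, pandas 2.3.3, numpy 2.4.6 and matplotlib 3.10.9 were used.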

Additional observations from a re-analysis of the deposited data

How the results depend on the processing

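The 2 probe sets, and 2 genes, at least 2-fold lower in null cells were Epgn and Ereg under a common floor, quantile normalization and rescaling to a median ratio of 0. With no floor or a floor at the 25th percentile, 4 probe sets were at least 2-fold lower (Nrg1 and a Tgfa probe set were added), where 13.6% and 6.49% of all measured probe sets were. With only probe sets above both floors, and likewise when floored at the 75th percentile, 0 probe sets and 0 genes were, since these settings leave out Epgn and Ereg. Rescaled to the hybridization controls, 1 probe set and 1 gene was, Epgn. No probe set was at least 2-fold higher as reported, but 2 were with no floor, 1 with log2(signal + 16) and 1 when floored at the 25th percentile, all of Nrg2, where 11.1%, 1.55% and 4.33% of all were. The median of -0.37 became 0.014 over the 3 probe sets left by a floor at the 75th percentile, and -0.035 over the 6 probe sets above both floors. It also came closer to 0 in settings that kept Epgn and Ereg: -0.07 over 14 probe sets with no floor, -0.08 over 13 when floored at the 25th percentile, -0.05 with log2(signal + 16) and -0.14 on the hybridization-control scale, where the median of all was 0.23. The remaining scalings and the common floor gave -0.38 to -0.33. Of the 79 values of single ligand probe sets under the alternatives, 76 moved by less than the robust SD of their bin. The others were Egf, at -0.13 when floored at the 75th percentile, and the second Nrg2 probe set, at 1.68 with no floor and with the floor at the 25th percentile. For the 6 probe sets above both floors, no floor, a lower floor, a common floor and the above-both filter left the ratio unchanged by construction. A setting that left a probe set out is not counted for it. Over the alternatives that measured it, Epgn ran from -2.42 to -1.76 and Ereg from -1.69 to -0.92. No paired analysis was possible because each genotype has 1 array. Depth is limited by signal over background: 8 of the 14 ligand probe sets were at the floor on at least 1 array.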
